A study of Mus musculus with 20 samples.

Results

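The comparison of oral Nissle with oral PBS was examined in mice that had received intrarectal DNBS, using 10 of the 20 samples of the series, 5 in each group. Nissle is the name of a probiotic Escherichia coli strain given by mouth, and DNBS (dinitrobenzene sulfonic acid) is a hapten used in rodents to provoke intestinal inflammation. Samples of the Nissle group had intrarectal DNBS and oral Nissle; samples of the DNBS group had intrarectal DNBS and oral phosphate-buffered saline (PBS). Healthy controls had PBS by both routes, and the last group had intrarectal DNBS and oral CEC, an agent the labels do not spell out; each held 5 samples. Strain, age, sex, doses and times are not given in the sources used here. The series text mentions pooling of RNA from mice, so whether a sample is 1 animal is unclear. The p-values below then measure the spread between these samples alone, and that spread may be technical. The labels of Nissle 3, 4 and 5 contradict themselves: their experimental group reads healthy control, but their titles, descriptions and treatment labels all read Nissle. These 3 samples were kept as Nissle, and values without them are given where the direction turned and, for assays printed sample by sample, where the difference moved by over 1.5 times. Such values rest on Nissle 1 and Nissle 2 alone, so Nissle 1, which stood apart in many assays, weighs more in them than in the full group.

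RNA of ileal mucosa was measured by real-time PCR with 648 assays on an inflammation panel. A cycle threshold (Ct) is the PCR cycle at which an assay's fluorescence crosses a set line, so a lower Ct means more template. The relative level used here is the negative of Ct minus the sample's mean Ct, and 1 unit is a doubling if amplification is perfect; efficiencies were not measured. Levels of different assays are not on one scale and are not compared with each other. Members are all assays with at least 3 values in the Nissle and in the DNBS group, which gave 580 of 648 assays for 522 genes; 559 of them had a value in all 10 samples. The mean Ct of the complete assays was 23.1 ± 0.57 cycles in Nissle and 23.3 ± 0.57 in DNBS (SD, n = 5; two-sided exact permutation p = 0.595, smallest possible 0.00794). Assays with a value averaged 586.6 and 588 (exact permutation p = 0.730). Of the markers of ileal epithelium, Reg3g, an antimicrobial lectin of enterocytes and Paneth cells, Krt8, a keratin of simple epithelia, and Ccl25, the chemokine of the small intestine, had values in all 10 samples, and Apoa4, an apolipoprotein of absorptive cells, gave no value in any sample.

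The injured intestinal mucosa is known to respond in a set order. Epithelial cells and macrophages that sense bacteria through Toll-like receptors activate NF-kB and release interleukin-1, interleukin-6 and CXC chemokines, and these draw neutrophils into the tissue. Resolution involves lipid mediators and proteins such as annexin A1 that limit neutrophil entry and favour repair.

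No assay passed the threshold between Nissle and DNBS. With limma and Benjamini-Hochberg adjustment, 0 of 580 assays had an adjusted p under 0.05 (0% called), and the smallest adjusted p was 0.860. At an unadjusted p under 0.05, limma gave 24 assays (4.14% of 580), where 5% of 580 is 29; 9 had the higher mean in Nissle (1.55%) and 15 the lower (2.59%). Of all 580, 261 had the higher mean in Nissle (45%) and 319 the lower (55%). The split depends on the scaling: with reference assays in place of the mean of all, 350 were higher (60.3%) and the median moved to 0.10, and with no normalization 369 (63.6%). The median log2 difference, Nissle minus DNBS, was -0.06, with quartiles of -0.34 and 0.33, and the median SE was 0.42. A 95% interval reached 0.87 to either side of the difference in the median assay. A smaller observed difference would not reach an unadjusted p under 0.05 there. A call after adjustment needed a larger difference. Differences beyond 1 in size were found in 42 assays, 24 higher and 18 lower in Nissle. The assays named below are those with the smallest unadjusted p, list members and common readouts; values are given for them, and none is a called change.

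**Figure D1:**
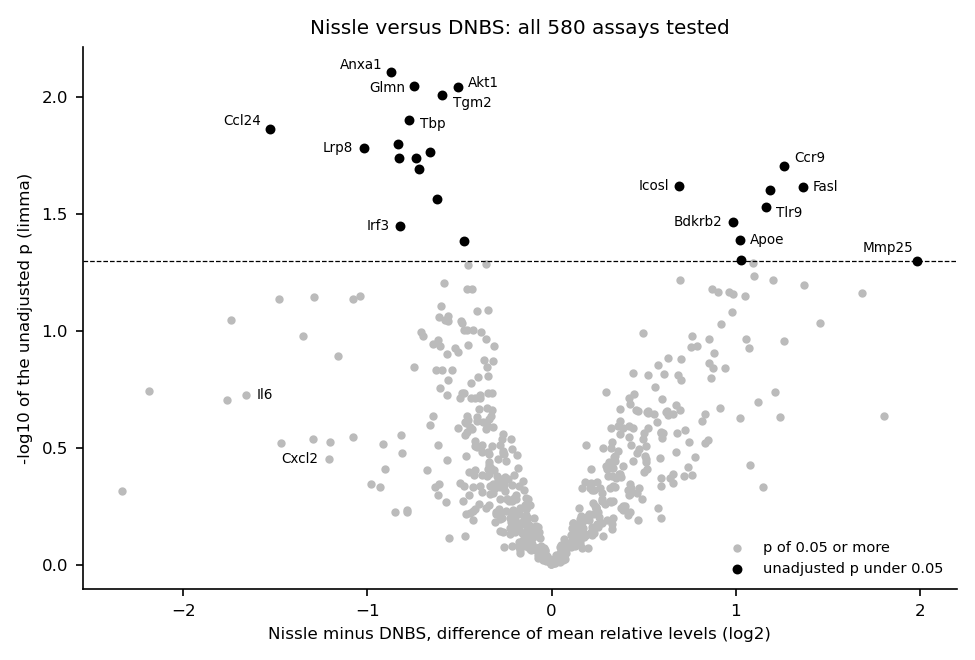
Each of the 580 assays as a point: the x axis is the log2 difference of mean relative levels, Nissle minus DNBS, and the y axis -log10 of limma's unadjusted p; the dashed line marks the threshold of 0.05 before adjustment. The 24 black points lie above the line, 15 to the left and 9 to the right of 0, and none passes after adjustment.

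Among the assays with the smallest p, those with lower means in Nissle came first. Anxa1 encodes annexin A1, a glucocorticoid-induced protein that restrains neutrophil entry. Its levels were 2.01, 2.15, 1.52, 1.80 and 1.77 in Nissle 1 to 5 and 2.43, 2.97, 2.77, 3.15 and 2.30 in DNBS 1 to 5. Every Nissle value lay below every DNBS value, and the healthy samples spanned 1.36 to 2.37. The difference was -0.87 (SE 0.30; 95% interval -1.49 to -0.26), a mean 1.83-fold higher in DNBS (limma, unadjusted p = 0.00775, adjusted p = 0.860). Without the 3 samples of contradictory label it was -0.64 (limma, unadjusted p = 0.137).

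Glmn encodes glomulin, a regulator of cullin ubiquitin ligases. It was at -2.01, -1.26, -1.45, -1.22 and -0.96 in Nissle and -0.22, -0.82, -0.34, -0.94 and -0.83 in DNBS. The groups did not overlap, although Nissle 5 and DNBS 4 were only narrowly apart. The difference was -0.75 (SE 0.26; limma, unadjusted p = 0.00894), and Glmn was also lower in Nissle than in CEC, by a difference of -0.58 (limma, unadjusted p = 0.0373).

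Tgm2, tissue transglutaminase, which crosslinks matrix proteins, averaged 4.47 ± 0.37 in Nissle and 5.06 ± 0.29 in DNBS (SD, n = 5). Its levels were 4.90, 4.03, 4.69, 4.57 and 4.15 in Nissle and 5.25, 5.08, 5.26, 5.15 and 4.56 in DNBS, where DNBS 5 was the only sample within the Nissle range. Akt1, the kinase downstream of PI3 kinase, averaged 3.21 ± 0.21 and 3.71 ± 0.20 (SD, n = 5), with overlap again through DNBS 5. For Akt1 the difference was -0.51 (SE 0.18) and for Tgm2 -0.59 (SE 0.21). In healthy samples the means were 4.36 ± 0.27 for Tgm2 and 3.09 ± 0.22 for Akt1 (SD, n = 5), nearer to Nissle than to DNBS; the difference of Nissle from healthy was 0.11 (limma, unadjusted p = 0.610) and 0.12 (limma, unadjusted p = 0.507).

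Hgf, hepatocyte growth factor, which stroma supplies to epithelial cells, was read by 3 assays. The first gave -0.41, -1.02, -0.74, -0.46 and -0.52 in Nissle and 0.03, -0.19, -0.15, 0.43 and 0.91 in DNBS, with no overlap. Its difference was -0.83 (SE 0.32), that of the second -0.62 (SE 0.26) and that of the third -0.28 (SE 0.37). All 3 assays had the lower mean in Nissle, and the third covered 0 within 1 SE; without the 3 samples of contradictory label its difference was 0.25.

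Ccl24, eotaxin-2, a chemokine for eosinophils, had a difference of -1.53 (SE 0.57; 95% interval -2.71 to -0.35), a mean 2.89-fold higher in DNBS. Its levels were -1.04, -2.73, -2.60, -4.39 and -2.13 in Nissle and 0.17, -0.97, -2.53, -0.02 and -1.89 in DNBS. The groups overlapped: Nissle 1 and 5 lay within the DNBS range and DNBS 3 and 5 within the Nissle range. Without the 3 samples of contradictory label the difference was -0.84 (limma, unadjusted p = 0.243). Lrp8, a receptor for apolipoprotein E and reelin, differed by -1.02 (SE 0.39) and Tbp, the TATA-binding protein, by -0.77 (SE 0.28).

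Of 580 assays, 6 had groups that did not overlap (1.03%), 5 with Nissle below (0.862%) and 1 above (0.172%). Beside Anxa1, Glmn and the first Hgf assay, the lower ones were Tirap, the adaptor of Toll-like receptors 2 and 4, and Plaa, an activator of phospholipase A2, which was named after its values were seen. Tirap stood at 0.14, -0.46, 0.07, 0.08 and 0.17 in Nissle and 0.36, 0.41, 0.37, 0.99 and 0.24 in DNBS. Nissle 5 and DNBS 5 were close, and the difference was -0.48 (SE 0.22).

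Apoe, apolipoprotein E, a lipid carrier of macrophages, was the one assay with every Nissle value above every DNBS value. It was at 4.33, 5.19, 4.44, 4.68 and 4.30 in Nissle and 2.53, 4.13, 4.26, 4.14 and 2.77 in DNBS. DNBS 1 and 5 were low, while the other DNBS samples lay just under the Nissle range. The difference was 1.02 (SE 0.47; 95% interval 0.05 to 2.0), a 2.03-fold higher mean.

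Other assays with small p had higher means in Nissle. Ccr9, the receptor for Ccl25 that directs T cells to the small intestine, was at -1.07, 0.23, -0.62, 0.01 and 0.26 in Nissle and -1.77, -0.44, -0.54, -1.46 and -3.28 in DNBS, a difference of 1.26 (SE 0.50). The groups overlapped, and without DNBS 5 the difference was 0.81. Fasl, the death ligand of cytotoxic T cells, was at -3.21, -2.56, -3.19, -2.92 and -2.68 in Nissle and -4.79, -3.0, -4.0, -4.18 and -5.41 in DNBS. It differed by 1.36 (SE 0.56), with DNBS 2 within the Nissle range. Icosl, the costimulatory ligand of ICOS, differed by 0.69 (SE 0.28). Tlr9, the receptor for unmethylated bacterial DNA, differed by 1.16 (SE 0.50), Bdkrb2, the bradykinin B2 receptor, by 0.98 (SE 0.43) and Aoc3, vascular adhesion protein 1, by 1.03 (SE 0.49).

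**Figure D2:**
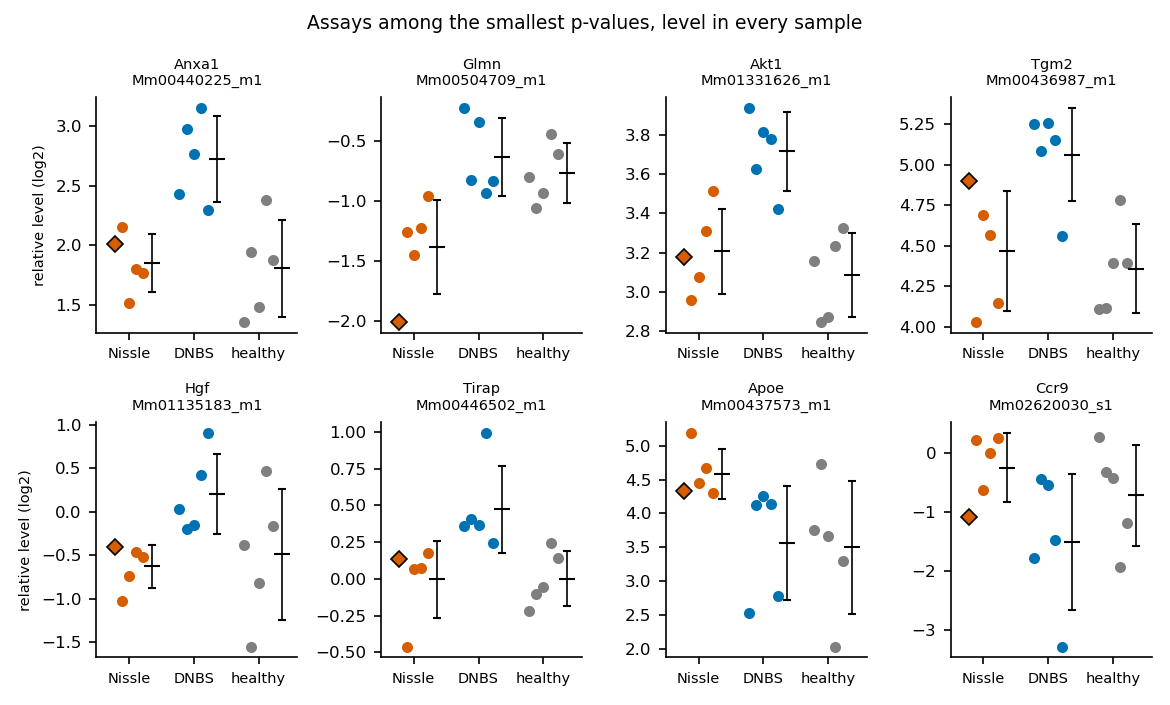
Relative level (log2) of 8 assays in every sample of the Nissle, DNBS and healthy groups; the bar beside each group is the mean with 1 SD (n = 5), and the outlined diamond is Nissle 1. The 5 Nissle values lie below the 5 DNBS values for Anxa1, Glmn, Hgf and Tirap and above them for Apoe.

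Many of these higher values share a place in the deposited table, as do many of the lower ones. For this comparison the 648 rows were cut, in their deposited order, into 12 equal runs of 54. The number of runs was set here and is not in the labels. In some samples the median of a run was shifted against the others. The median of run 1 was -1.44 in DNBS 1 and -1.16 in DNBS 5 relative to each assay's mean over 20 samples, but 0.83 in Nissle 2 and 0.59 in Nissle 5. The median Nissle minus DNBS difference was 0.70 over the 44 members of run 1, and 7 of the 9 assays with a higher mean at an unadjusted p under 0.05 lay in it. Runs 3, 6 and 9 had median differences of -0.30, -0.33 and -0.35. They held 3, 4 and 4 of the 15 assays with a lower mean at that threshold. The shifts between runs spanned 2.46 in DNBS 5, 1.72 in DNBS 1 and 0.264 in DNBS 4. The sources used here do not say whether the runs match any unit of the laboratory work.

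Each run was therefore also centred in each sample, an alternative chosen after the shifts were seen. Then Apoe differed by 0.37 in place of 1.02 and its groups overlapped, Ccr9 by 0.61, Fasl by 0.71, Tlr9 by 0.51, Bdkrb2 by 0.33 and Aoc3 by 0.37. Of the lower assays, Glmn moved to -0.64, Tgm2 to -0.48, Ccl24 to -1.58 and Tbp to -0.45. Anxa1 moved to -0.60 (limma, unadjusted p = 0.0880), Akt1 to -0.24 (limma, unadjusted p = 0.161) and Lrp8 to -0.73 (limma, unadjusted p = 0.0869). The groups of Anxa1, Glmn and the first Hgf assay then overlapped. After centring, limma gave 22 assays with an unadjusted p under 0.05 and 0 after adjustment; 8 of the 22 were among the 24. Groups did not overlap for 2 of 580 assays (0.345%): Tbp below, and Camp above.

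**Figure D3:**
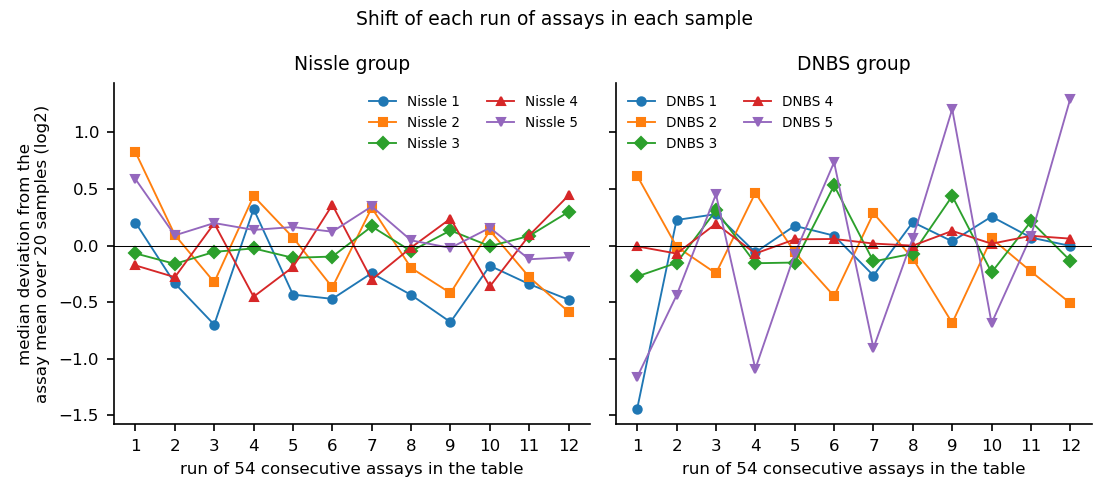
Median deviation of each run of 54 consecutive assays from the assay means over 20 samples (log2, y axis), by run (x axis), 1 line per sample, Nissle at left and DNBS at right. DNBS 1 and DNBS 5 are low in run 1, at -1.44 and -1.16, and DNBS 4 stays near 0 in every run.

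The genes of neutrophil inflammation spread widely within the Nissle group, with Nissle 1 far above the other 4 samples. Il6, interleukin-6, and Cxcl2, a chemokine that draws neutrophils through Cxcr2, are textbook targets of NF-kB. Their promoters are shown because both genes had high levels in the same sample and both hold the letters of a kB site. The sequences are from RefSeq on GRCm38.p6, from 250 bases before to 50 after the gene's start, with matches to GGG, any 2 bases and TTTCC, searched on both strands, in capitals.
Il6, chr5:30012864-30013163, plus strand: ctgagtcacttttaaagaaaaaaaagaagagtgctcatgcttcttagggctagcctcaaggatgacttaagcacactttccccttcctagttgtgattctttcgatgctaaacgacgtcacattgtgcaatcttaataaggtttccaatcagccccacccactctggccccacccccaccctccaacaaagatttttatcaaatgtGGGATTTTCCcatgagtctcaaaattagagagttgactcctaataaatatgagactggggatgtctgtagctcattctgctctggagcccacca
Cxcl2, chr5:90903649-90903948, plus strand: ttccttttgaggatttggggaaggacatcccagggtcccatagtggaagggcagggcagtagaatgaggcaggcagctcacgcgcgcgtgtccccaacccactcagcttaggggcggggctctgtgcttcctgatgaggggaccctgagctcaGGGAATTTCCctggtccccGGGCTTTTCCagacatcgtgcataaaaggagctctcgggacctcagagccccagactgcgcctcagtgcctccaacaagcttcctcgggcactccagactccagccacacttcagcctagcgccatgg
Counted from the start, the match in Il6 begins at -44 and those in Cxcl2 at -97 and -78, without overlap. Of 32851 promoters of the same length, 535 held a match (1.63%). The promoters of S100a8 and S100a9 held none. A match is a description of the letters alone.

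Il6 was at 1.89, -4.05, -6.34, -2.44 and -5.94 in Nissle 1 to 5 and at -1.27, -0.93, -2.50, -2.63 and -1.26 in DNBS 1 to 5. Nissle 1 was above every DNBS sample, Nissle 4 was within their range, and Nissle 2, 3 and 5 were below it. Healthy samples ranged from -7.11 to -5.26. The difference was -1.66 (SE 1.22; 95% interval -4.20 to 0.88; limma, unadjusted p = 0.188). Without Nissle 1 it was -2.98 (limma, unadjusted p = 0.00616), and without the 3 samples of contradictory label it was 0.64, the opposite direction. The Nissle mean in the latter rests on Nissle 1 at 1.89 and Nissle 2 at -4.05 alone.

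Cxcl2 was at 2.77, -2.74, -2.30, -6.36 and -5.62 in Nissle and at -1.93, -0.03, -2.18, -2.88 and -1.19 in DNBS. Nissle 1 was again the highest of the 10 samples, and Nissle 4 and 5 lay within the healthy range of -7.75 to -4.44. The difference was -1.21 (SE 1.28), -2.61 without Nissle 1 and 1.66 without the 3 samples of contradictory label.

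Il1b, interleukin-1 beta, was at 3.77 in Nissle 1 and between -2.32 and -0.72 in the other Nissle samples, while DNBS samples were at 0.27, 1.03, -0.18, 0.37 and -0.30. All DNBS values thus lay between Nissle 1 and the rest of its group. The difference was -0.61 (SE 0.80), -1.65 without Nissle 1 and 1.28 without the 3 samples of contradictory label. A second Il1b assay differed by 0.06 (SE 1.06), or -1.09 without Nissle 1.

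Of 14 neutrophil markers listed, 7 were on the panel and all were measured: 2 had the higher mean in Nissle and 5 the lower, with a median difference of -0.79, against -0.06 over all 580 assays. None passed the test. Nissle 1 was the highest of the 5 Nissle samples in 7 of 7. The averages over the 7 markers were 2.29, -1.42, -1.98, -1.78 and -2.47 in Nissle 1 to 5, -0.54, 0.36, -0.39, -0.56 and -2.44 in DNBS 1 to 5, and -3.17 to -1.73 in healthy samples. DNBS 5 was nearly as low as the lowest Nissle sample. The list median was -1.61 without Nissle 1, with 1 of 7 higher, and 1.33 without the 3 samples of contradictory label, with 6 of 7 higher. In bulk mucosa, fewer neutrophils and less RNA per neutrophil cannot be told apart. The part that neutrophil content had in the differences of Il6, Cxcl2 and Il1b was not tested.

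S100a8 and S100a9, the subunits of calprotectin, a protein stored by neutrophils, were named after their values were seen. S100a8 averaged 1.29 ± 3.01 in Nissle and 2.08 ± 2.33 in DNBS, and S100a9 0.05 ± 3.16 and 0.83 ± 2.83 (SD, n = 5). Each had a difference of -0.79, without Nissle 1 of -2.08 and -2.14, and without the 3 samples of contradictory label of 1.33 and 1.54. Ltf, lactoferrin of neutrophil granules, was at 1.23, -0.95, -1.46, -1.97 and -1.47 in Nissle and at 0.59, 0.80, 0.92, 0.04 and -1.60 in DNBS. It differed by -1.08 (SE 0.57), and by -1.61 without Nissle 1 (limma, unadjusted p = 0.00390). Its difference was -0.0091 without the 3 samples of contradictory label. Camp, the cathelicidin antimicrobial peptide, went the other way at 1.46 (SE 0.82): 4 of 5 Nissle values lay between -5.23 and -4.41 and Nissle 1 was at -1.06, while DNBS ranged from -6.86 to -4.75. For Camp the difference was 0.71 without Nissle 1 and 2.79 without the 3 samples of contradictory label.

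Chemokines and growth factors that recruit neutrophils had a list median of -0.26, with 1 of 7 higher in Nissle. Without Nissle 1 the median was -1.56, without the 3 samples of contradictory label 1.0 with 6 of 7 higher, and after centring -0.07 with 3 of 7 higher. Cxcl1, chosen after its values were seen, had a difference of -0.68, or -1.56 without Nissle 1 and 0.75 without the 3 samples of contradictory label. Ppbp, the platelet chemokine precursor, was the member with the higher mean, at 0.85 (SE 0.55). In the gp130 family, whose members signal through Il6st, 2 of 8 were higher and the median was -0.27; after centring 4 of 8 were higher and the median was -0.02. Osm, oncostatin M, was at -1.55, -4.52, -5.74, -4.19 and -5.98 in Nissle and -1.70, -2.30, -4.19, -3.11 and -3.94 in DNBS, a difference of -1.35 (SE 0.79). It was -2.06 without Nissle 1 and 0.01 without the 3 samples of contradictory label.

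Il6 was read by 2 further assays. Their differences were -2.33 (SE 3.25) and -2.19 (SE 1.56), or 0.75 and 0.03 without the 3 samples of contradictory label. The fit of the former includes a Ct of 5.74 in 1 healthy sample, and the latter had values in only 3 Nissle samples. It gave no value in Nissle 3 and Nissle 4, which its difference leaves out, and had values in 5 of 5 DNBS samples. Nissle 4 was within the DNBS range in the assay printed above. In both further assays, Nissle 1 was the highest of the 10 samples.

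**Figure D4:**
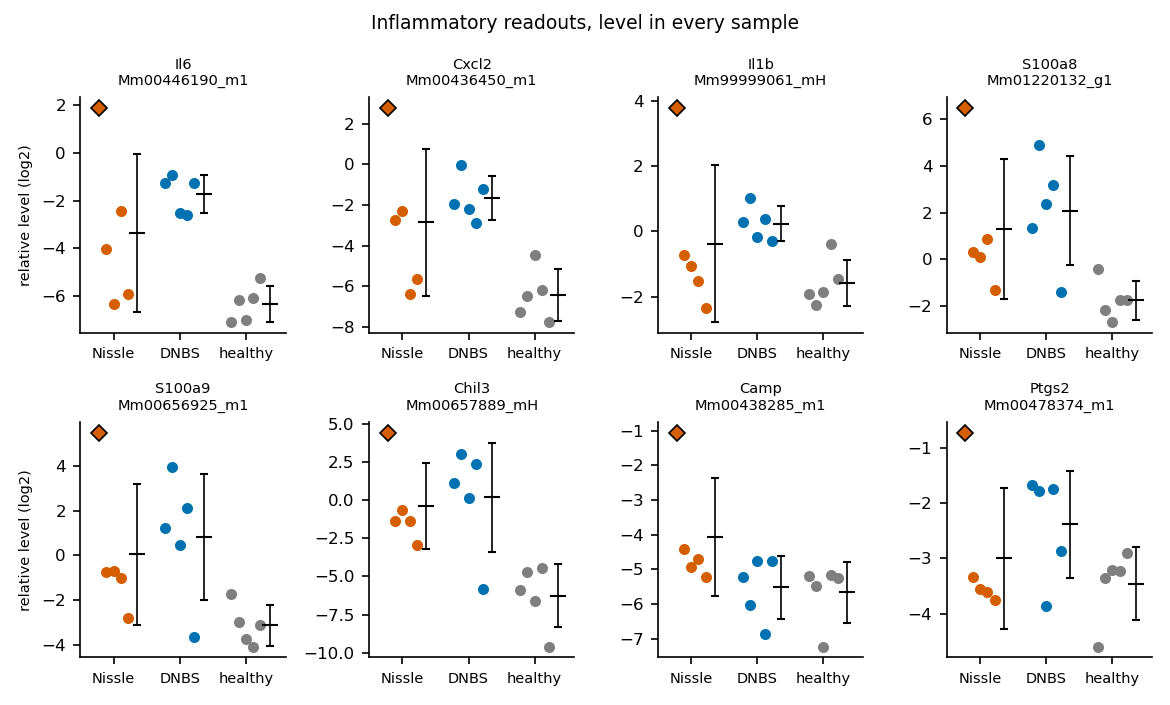
Relative level (log2) of 8 inflammatory assays in every sample of the Nissle, DNBS and healthy groups; the bar beside each group is the mean with 1 SD (n = 5), and the outlined diamond is Nissle 1. Nissle 1 is the highest sample of its group in each panel, for Il6 at 1.89 against -6.34 to -2.44 in the others.

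The interleukin-1 family and inflammasome list had 4 of 14 members higher in Nissle and a median of -0.12. With reference assays 9 of 14 were higher and the median was 0.04. The median was 0.35 without the 3 samples of contradictory label, with 9 higher. Il18, the epithelial cytokine activated by caspase-1, differed by -0.65 (SE 0.39), and Il1rap, the shared receptor subunit, by 0.44 (SE 0.30). Ptgs2, the inducible cyclooxygenase, was at -0.72, -3.35, -3.56, -3.61 and -3.76 in Nissle and -1.66, -1.77, -3.87, -1.74 and -2.87 in DNBS. Nissle 2 to 5 lay close together below 4 of the 5 DNBS samples, and the difference was -0.62 (SE 0.59), or -1.18 without Nissle 1 and 0.35 without the 3 samples of contradictory label. The eicosanoid list, with 7 of 9 higher and a median of 0.18, had a median of -0.02 without Nissle 1. Nos2, inducible nitric oxide synthase, differed by -0.19 (SE 0.47), or 0.16 without the 3 samples of contradictory label. Hif1a, the oxygen-regulated transcription factor, differed by -0.61 (SE 0.34), in a list of nitric oxide, hypoxia and redox genes of which 2 of 8 were higher, with a median of -0.20. For this list 5 of 8 were higher and the median was 0.17 without the 3 samples of contradictory label.

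Chemokines of monocytes and lymphocytes mostly had higher means in Nissle. Of 8 measured, 7 had the higher mean in Nissle, against 45% of all assays, and the median was 0.44; none passed the test. It was 0.35 without Nissle 1, 0.23 after centring and 1.46 without the 3 samples of contradictory label. Ccl4, macrophage inflammatory protein 1 beta, was at 1.21, -1.72, -1.92, -0.91 and -1.24 in Nissle and -2.51, -1.97, -1.98, -2.24 and -1.34 in DNBS, a difference of 1.09 (SE 0.53; limma, unadjusted p = 0.0510). All but DNBS 5 lay below the Nissle samples, and the difference was 0.56 without Nissle 1 and 1.75 without the 3 samples of contradictory label. Ccl8, monocyte chemoattractant protein 2, differed by 0.98 (SE 0.51) and by 0.33 after centring. The chemokines Ccl3 and Ccl5, outside the rule for named assays and chosen after their values were seen, had differences of 1.05 and 0.66. Without Nissle 1 that of Ccl3 was 0.37, and without the 3 samples of contradictory label that of Ccl5 was -0.07. Markers of macrophages, monocytes and dendritic cells were split 5 to 5, with a median of 0.12. The median was -0.07 without Nissle 1, and 0.98 with 8 of 10 higher without the 3 samples of contradictory label. The costimulatory molecule Cd86 differed by 1.10 (SE 0.55), or 0.45 after centring, and the fractalkine receptor Cx3cr1 by 0.56 (SE 0.40).

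Of the chemokine receptors, 12 of 20 had the higher mean in Nissle, with a median of 0.10. Beside Ccr9, the smallest p was that of Ccr3, the eotaxin receptor of eosinophils. Its levels were -2.80, -0.93, -2.09, -2.77 and -1.69 in Nissle and -2.73, -1.94, -4.84, -3.84 and -2.87 in DNBS, a difference of 1.18 (SE 0.49). A second Ccr3 assay differed by 0.28 (SE 0.88). The Ccr9 assay and the first Ccr3 assay lie within single exons, by the suffix of their names. Of 53 single-exon members, 39 had the higher mean in Nissle and the median was 0.33, with or without centring. Of these 53, 3 had an unadjusted p under 0.05 (5.66%), all with the higher mean in Nissle, against 4.14% of all 580 in either direction and 1.55% with the higher mean.

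Bacterial sensing is where an oral bacterium meets the panel directly. Of 16 sensors and adaptors measured, 5 had the higher mean in Nissle and 11 the lower, with a median of -0.25, against -0.06 over all assays, and of -0.11 after centring. With reference assays 8 of 16 were higher and the median was -0.09, against 0.10 over all assays. Tirap and Tlr9 were the members with an unadjusted p under 0.05, in opposite directions. Of the interferon and STAT list, 9 of 18 were higher, with a median of 0.05, or -0.11 without the 3 samples of contradictory label. Irf3, the transcription factor downstream of the adaptor Ticam1, was at 1.71, 1.21, 1.42, 1.65 and 2.19 in Nissle and 2.23, 1.34, 2.92, 2.62 and 3.18 in DNBS, a difference of -0.82 (SE 0.37). Only DNBS 2 lay within the Nissle range. A second Irf3 assay differed by -0.11 (SE 0.31). Ifne, the epithelial interferon epsilon, differed by 1.20 (SE 0.60). The 3 measured genes of NF-kB signalling had a median of 0.11, with 2 higher; Nfkb1 differed by 0.56 (SE 0.45) and by -0.10 after centring.

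No cytokine of helper T cells that could be tested passed. In the Th17 list 3 of 9 were higher, with a median of -0.27. After centring 2 of 9 were higher and the median was -0.53, but without the 3 samples of contradictory label 5 of 9 were higher and it was 0.11. Il17a, its signature cytokine, was at -1.13, -5.31, -4.41, -5.77 and -5.90 in Nissle and -4.87, -4.03, -7.94, -4.69 and -7.06 in DNBS. Nissle 1 was the highest, and the difference was 1.21 (SE 0.88), or 0.37 without it and 2.50 without the 3 samples of contradictory label. In the list of the Th1 and CXCR3 axis 6 of 11 were higher, with a median of 0.01, or -0.07 without Nissle 1 and -0.04 without the 3 samples of contradictory label. Ifng, interferon gamma, differed by 0.01 (SE 0.59) and 0.64 (SE 0.79) in its 2 assays, and Il12b, the p40 chain, by 0.66 (SE 0.85) and 0.85 (SE 0.78). Cxcl11, a ligand of Cxcr3, differed by 1.68 (SE 0.88). In the type 2 list 2 of 7 were higher, with a median of -0.13. These 7 hold none of the cytokines Il4, Il5, Il9 and Il13, which had too few values to be tested. Tslp, an epithelial cytokine that acts on dendritic cells, was at -5.62, -4.37, -5.26, -3.69 and -4.16 in Nissle and -5.26, -5.82, -5.14, -7.04 and -6.68 in DNBS, a difference of 1.37 (SE 0.70). Nissle 1 and 3 lay within the DNBS range. T and NK cell markers had 4 of 5 higher, with a median of 0.08. Quantile normalization gave 2 of 5 and -0.05, and leaving out the 3 samples of contradictory label 1 of 5 and -0.24. The B cell and follicular dendritic cell gene Cr2, the complement receptor 2, differed by -1.29 (SE 0.68).

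Of the 4 epithelial markers measured, 3 had the higher mean in Nissle, with a median of 0.56; it was 0.26 after centring, 0.93 without Nissle 1 and -0.06 without the 3 samples of contradictory label. Ccl25 was at 3.02, 5.77, 5.32, 5.11 and 6.01 in Nissle and 5.26, 3.08, 4.80, 4.13 and 4.88 in DNBS, a difference of 0.62 (SE 0.49), or 1.13 without Nissle 1 and -0.03 without the 3 samples of contradictory label. Nissle 1 and DNBS 2 were about equally low. Reg3g differed by -0.60 (SE 0.32) and Krt8 by 0.87 (SE 0.45), or 0.22 after centring. The anti-inflammatory list had 5 of 12 higher and a median of -0.14; beside Anxa1 it held Socs1, the inhibitor of JAK kinases, at -0.71 (SE 0.41).

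In the remaining lists no member passed the test. The MAP kinase and PI3 kinase list had 2 of 10 higher and a median of -0.25, or -0.03 without Nissle 1. The TNF superfamily had 8 of 24 higher and a median of -0.12, complement and acute-phase genes 11 of 18 and 0.04, and the TGF-beta and BMP superfamily 9 of 17 and 0.09. Homeostatic and gut-homing chemokines had 4 of 8 higher and a median of -0.05. Adhesion molecules and integrins had 4 of 5 and 0.32, or 0.03 without Nissle 1. Eosinophil and mast cell markers had 1 of 4 and -0.04, and the endothelial markers 1 of 2 and 0.11. Reference genes had 5 of 13 higher and a median of -0.14. Some of these small medians turned with the scaling. With reference assays the TNF superfamily had 15 of 24 higher and a median of 0.04, the type 2 list 4 of 7 and 0.03, the anti-inflammatory list 7 of 12 and 0.02, homeostatic chemokines 5 of 8 and 0.11, and eosinophil and mast cell markers 3 of 4 and 0.18. Centring turned the median of the TGF-beta and BMP superfamily to -0.06, and leaving out the 3 samples of contradictory label to -0.0097. Without Nissle 1 the median was 0.22 for eosinophil and mast cell markers and -0.13 for endothelial markers.

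**Figure D5:**
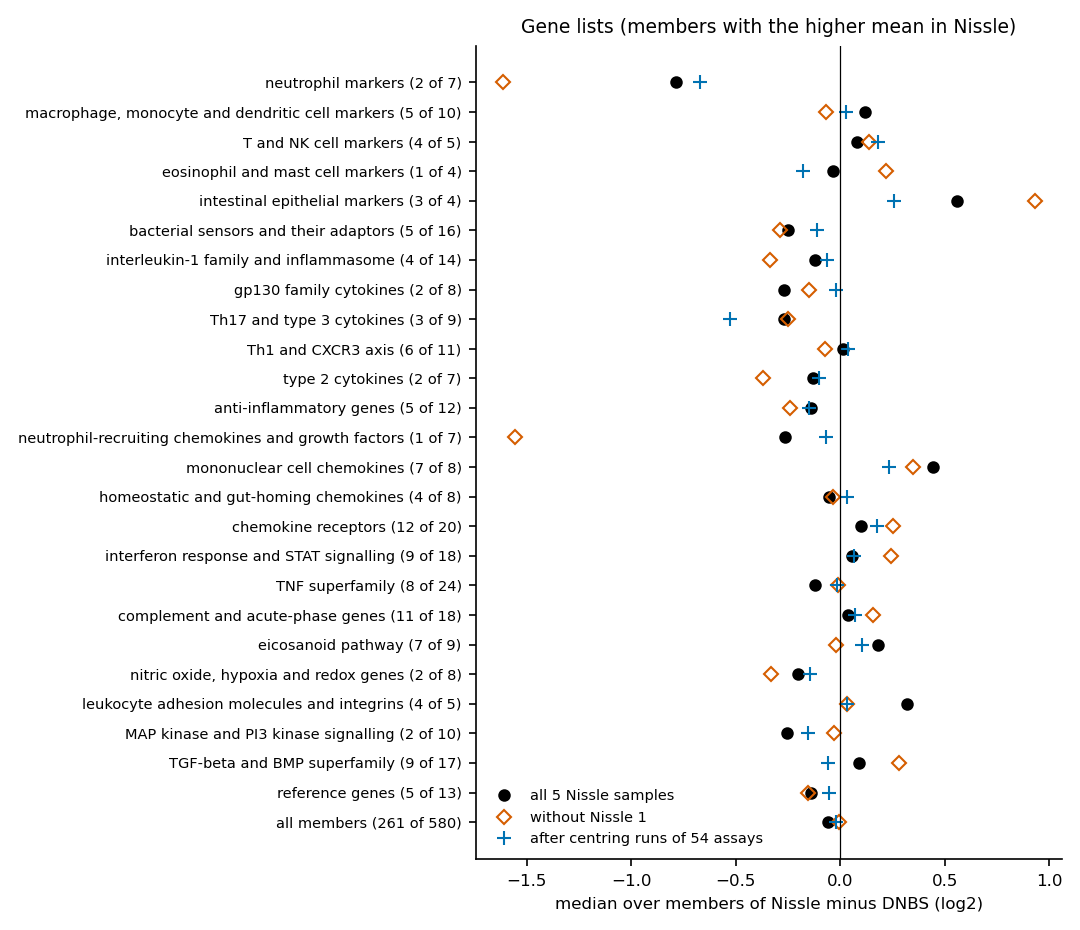
Median over list members of the log2 difference, Nissle minus DNBS (x axis), for each list with at least 4 measured members and for all 580; filled circles are all samples, open diamonds leave out Nissle 1, crosses are after centring runs, and the numbers in parentheses count members with the higher mean in Nissle. The neutrophil markers move from -0.79 to -1.61 without Nissle 1, and all members stay near 0.

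Assays with a value missing in some samples were compared by how many samples gave one. Fisher's exact test with 5 samples a group can reach no p below 0.00794, so an assay separated alone could not pass adjustment over 58. It called 0 of 58 assays (0%), a count that the few samples nearly fixed, and the smallest unadjusted p was 0.0476. It was reached by Fgf23, a phosphate-regulating hormone, and by 1 assay of Il23a, the p19 chain of interleukin-23: each had a value in 1 of 5 Nissle and 5 of 5 DNBS samples. In both, the Nissle sample with a value was Nissle 1. Fgf23 had a value in 0 of 5 healthy samples and Il23a in 2. The second Il23a assay had a value in 1 of 5 Nissle and 3 of 5 DNBS samples (Fisher's exact test, unadjusted p = 0.524). Tnf and Il10 had no value in any sample, which cannot tell a low transcript from an assay that failed.

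Nissle 1 stood apart across the panel. Among the 5 Nissle samples it was the highest or lowest in 66.4% of the assays complete in the group, against 24.8% to 41.0% for the other 4. In the DNBS group DNBS 2 and DNBS 5 were extreme in 63.7% and 62.8%. Without Nissle 1, limma gave 53 assays with an unadjusted p under 0.05, 20 of them among the 24, and 0 after adjustment. Without Nissle 1 and DNBS 5 together, chosen after their values were seen, limma's smallest adjusted p was 0.0676, for Ltf, at a difference of -2.05.

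Against CEC, the other oral treatment in DNBS mice, Nissle differed in 0 of 582 assays by limma's adjusted p (0% called, smallest 0.998), and 9 had an unadjusted p under 0.05 (1.55%). Ccl4 had the smallest p, with a mean 1.63 higher in Nissle (limma, unadjusted p = 0.00553). For Anxa1, Akt1 and Tgm2, Nissle minus CEC was -0.39, 0.08 and 0.25. For Il6 and Cxcl2 it was 1.19 and 0.35, in both cases with Nissle 1 included.

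The comparisons of DNBS and of Nissle with healthy samples share samples with the one above, so their values are only set side by side. Each called 1 assay by limma's adjusted p, of 571 (0.175%) and of 573 (0.175%), and 83 (14.5%) and 54 (9.42%) at an unadjusted p under 0.05. This was Atrn, attractin, a membrane protein, with means of 0.26 ± 0.67 in Nissle, -0.34 ± 0.60 in DNBS and 2.71 ± 1.01 in healthy samples (SD, n = 5). DNBS minus healthy and Nissle minus healthy were 4.62 and 2.96 for Il6, 4.78 and 3.57 for Cxcl2, 0.91 and 0.04 for Anxa1, and 1.83 and 0.76 for Ltf; none of these passed adjustment.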

How the data were processed

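Per the file headers, the authors' deposited table is not normalized: it holds Ct values for 648 assays in 20 samples of ileal mucosa; baseline, threshold and averaging of wells are not given in the sources used here. RNA came from a mirVana kit and cDNA was run on TaqMan OpenArray plates, per the labels' protocols. A Ct of 40 (1273 of 12960 values, 9.82%) was taken as missing. Relative levels are negative Ct, centred on the mean over the 544 assays that gave a value in every sample. Symbols were updated through RefSeq's GRCm38.p6 table: 17 were renamed and 1 was unmatched.

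Groups were taken from titles and treatment labels. limma 3.58.1 in R 4.3.3 fitted the 4 group means over all 20 samples, with empirical Bayes moderation and a trend, tested two-sided, and adjusted by Benjamini-Hochberg at 0.05 over the assays of each comparison; it was tested on simulated data. Detection used Fisher's exact test, depth an exact permutation test. In lists, 1 assay stood for a gene, that with the lowest mean Ct, and lists had no test; for Il6 this was not the assay whose values are printed sample by sample. Named assays are the 8 with the smallest p in each direction, the 2 with the smallest p of each list, 9 common readouts (Tnf, Il10, Nos2, Ptgs2, Ifng, Il12b, Il17a, Il6, Il1b), other assays of these genes and those with a detection p under 0.05. Other genes named were chosen after their values were seen. Members and lists were chosen with earlier results of these data known.

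Alternatives were another normalization (none, reference genes, 17 assays), other filters, array weights, a replicate block, leaving out samples, and, added after the data were seen, centring runs of assays. The titles' numbers are shared between groups, but the labels do not say what they mark.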

Additional observations from a re-analysis of the deposited data

Results flagged for a closer look

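In 12 of 206 sets of 5 samples tested (5.83%), 1 sample lay far from the others of its group by Dixon's criterion; chance gives about 1 in 20. Of the 12, 7 were Nissle 1. Its average over the neutrophil markers was 2.29, next to -1.42 in the nearest Nissle sample, and over the interleukin-1 family 1.46, next to 0.0688. Over the eosinophil and mast cell markers it was the lowest, at -2.50 next to -1.25. Single assays in which Nissle 1 stood high were Il1b at 3.77 (nearest -0.722), Camp at -1.06 (nearest -4.41), Ptgs2 at -0.72 (nearest -3.35) and 1 assay of Ifng at -1.90 (nearest -3.86).

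Of the other samples, DNBS 2 was low in its average over MAP kinase and PI3 kinase genes, at 2.24 (nearest 2.52), and DNBS 5 was low in Tgm2, at 4.56 (nearest 5.08). Nissle 2 was low in Pgk1, a glycolytic enzyme, at 4.51 (nearest 5.37), and in Tirap, at -0.46 (nearest 0.0652). DNBS 4 was high in Tirap, at 0.99 (nearest 0.407).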

How the results depend on the processing

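The count of 0 called assays between Nissle and DNBS held under all 51 alternatives, 36 planned and 15 added after the data were seen, with the smallest limma adjusted p of each between 0.0676 and 0.999. The number with an unadjusted p under 0.05 moved by over 1.5 times from 24: 74 with array weights, which gave Nissle 1 a weight of 0.253, 58 without the 3 samples of contradictory label, 58 without DNBS 2, 53 without Nissle 1, 14 without Nissle 2, and 10 with no normalization; leaving out 1 sample in turn gave 14 to 58. Added alternatives gave 77 without Nissle 1 and DNBS 5, 80 with centring and array weights, and 11 with centring and the replicate block. Centring turned the direction of 106 of 580 assays. Of 76 named assays, 47 kept their direction under every alternative that gave them a value, and of all 580, 344 kept it when any 1 of the 10 samples was left out.

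With the titles' number as a replicate block, 0 assays were called and 31 had an unadjusted p under 0.05. Same-numbered samples correlated at -0.25 to 0.38 in their deviations, and at -0.27 to 0.52 after centring runs. On both scales 1 of 5 correlated best with its own number, Nissle 5 with DNBS 5, so the numbers were not taken to pair samples.

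Nissle against CEC and detection also gave 0 calls under each of their alternatives. For detection, so few samples a group left little room for any call. Of 48 genes read by several assays, 34 had the same direction in all of them.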

Other observations

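The genes below were chosen after their values were seen, and none passed the test. Il22, the cytokine that drives antimicrobial peptides and mucus repair in epithelial cells, was at 0.21, -6.28, -4.61, -6.88 and -5.95 in Nissle and -4.44, 0.12, -5.60, -2.29 and -2.48 in DNBS; its assay also reads the near-identical Iltifb. The difference was -1.76 (SE 1.33). Without Nissle 1 it was -2.99, and without the 3 samples of contradictory label -0.10. Saa3, an acute-phase protein made by inflamed mucosa, was at 5.44, 2.16, 1.57, 2.52 and 1.42 in Nissle and 3.99, 3.70, 5.04, 4.59 and 0.45 in DNBS. DNBS 5 was below every Nissle sample and the other DNBS samples were above Nissle 2 to 5. The difference of Saa3 was -0.93, and its direction turned without the 3 samples of contradictory label.

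Sectm1b was at 2.16, 4.84, 4.11, 4.61 and 4.39 in Nissle and 3.65, 1.59, 2.78, 2.80 and 4.4 in DNBS, while healthy samples lay between 4.88 and 5.08. Its difference was 0.98 (SE 0.54), and without Nissle 1 it was 1.45 (limma, unadjusted p = 0.00749), but 0.46 without the 3 samples of contradictory label. Cfd, the complement factor D of adipocytes, was lowest in Nissle 1, at -0.66, with the other Nissle samples between 2.14 and 3.59; DNBS samples spanned -0.10 to 3.07.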
